A study of Mus musculus with 20 samples.

Results

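The genes described here are the 8 mouse genes of the perilipin family (Plin1, Plin2, Plin3, Plin4 and Plin5) and the CIDE family (Cidea, Cideb and Cidec), which encode proteins of the lipid droplet surface. They were chosen by name, with earlier results of these 20 libraries known, out of 55421 genes in the count table. All 8 reached the minimum of 10 counts in total and were among the 22867 genes tested, and 6 of them averaged at least 1 CPM, the count scaled to the library size after TMM normalization. RNA-seq was performed on 20 livers of wildtype mice labelled female, injected at 6 months of age retro-orbitally with an AAV8 vector. In every group the vector drove the Cas9 of Staphylococcus aureus from the Tbg promoter, which is active in hepatocytes, beside a guide RNA under the U6 promoter. The guide was directed against Hira (HIRA groups), which encodes a chaperone of the histone variant H3.3, or against the neutral Rosa26 locus (Rosa26 groups, the controls). Livers were taken 3 weeks or 6 months after injection, 5 per group, so that no group was without virus or Cas9.

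Lipid droplets store triglyceride and sterol esters under a single layer of phospholipid, and perilipins coat that layer and regulate the access of lipases. PLIN2 and PLIN3 are found in most cells and PLIN2 is the major droplet coat of hepatocytes, PLIN5 is typical of tissues that burn fatty acids and ties droplets to mitochondria, and PLIN1 and PLIN4 are best known from adipocytes. The CIDE proteins let one droplet pass its lipid into another, so that droplets grow, with CIDEA and CIDEC typical of fat cells and of fatty liver and CIDEB typical of normal hepatocytes, where it also takes part in loading VLDL particles. Several of these genes are textbook targets of the fatty acid sensors PPAR alpha and PPAR gamma.

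All coordinates are GRCm38 (mm10), from GENCODE M21. Plin4 (chr17:56100591-56109803, minus strand) and Plin5 (chr17:56111601-56117596, minus strand) are direct neighbours 1.80 kb apart. Plin3 is on the same chromosome (chr17:56277476-56292873), Plin2 is at chr4:86648386-86670060, Plin1 at chr7:79720218-79732903, Cidec at chr6:113424634-113435760 and Cideb at chr14:55754050-55758458 (all minus strand). Of the exon bases of Cideb, 76.3% (1136 bases) are also exon of Nop9 on the other strand, and Plin4 shares 17 exon bases with Hdgfl2 on the other strand. Whether reads were counted by strand is not stated, so that reads of Cideb and Nop9 may not be told apart. No exon of another annotated gene overlaps the remaining 6 members.

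The stretches before the RefSeq starts of 4 of the members searched are given 5′ to 3′ (GRCm38.p6, minus strand, up to 250 bases before the start and outside every GENCODE exon). Capitals mark AGGTCA, the half-site that nuclear receptors such as the PPARs bind, read on both strands.
Plin4, chr17:56109804-56110032: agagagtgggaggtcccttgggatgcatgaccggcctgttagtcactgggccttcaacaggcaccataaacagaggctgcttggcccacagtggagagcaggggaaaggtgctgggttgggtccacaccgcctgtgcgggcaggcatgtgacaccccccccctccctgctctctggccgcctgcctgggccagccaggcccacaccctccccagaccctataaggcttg
Plin5, chr17:56117597-56117798: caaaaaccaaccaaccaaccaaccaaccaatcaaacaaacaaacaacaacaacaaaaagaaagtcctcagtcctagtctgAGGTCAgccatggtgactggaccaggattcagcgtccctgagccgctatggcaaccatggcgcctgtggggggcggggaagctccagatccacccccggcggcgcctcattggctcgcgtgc
Plin2, chr4:86670061-86670309: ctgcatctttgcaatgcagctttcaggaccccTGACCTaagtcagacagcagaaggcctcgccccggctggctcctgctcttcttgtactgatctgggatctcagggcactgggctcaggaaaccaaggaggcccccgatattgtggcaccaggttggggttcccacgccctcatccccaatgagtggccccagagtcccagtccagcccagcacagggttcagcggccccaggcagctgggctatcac
Cidec, chr6:113435761-113436010: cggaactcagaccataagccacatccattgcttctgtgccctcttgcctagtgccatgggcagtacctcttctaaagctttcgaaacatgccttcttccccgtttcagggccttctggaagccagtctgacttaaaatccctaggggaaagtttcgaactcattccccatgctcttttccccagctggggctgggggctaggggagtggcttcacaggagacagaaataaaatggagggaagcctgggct
The half-site letters occurred once before Plin5 (from 170 bases before its start) and once before Plin2 (from 218 bases before its start, as the reverse complement), and not in these windows of Plin4 and Cidec. They were also absent from the windows of Plin1, Plin3 and Cideb, and from those of a further start of Plin5 and of Cidec. Of 32851 mouse promoter windows of 250 bases, 14.0% held AGGTCA on either strand. The clock-factor E-box CACGTG was in none of the windows of the 7 members that were searched, beside 6.02% of all windows. A match is a description of the letters alone.

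The libraries held 19916430 to 24079736 counts each. One library went against its label: HIRA 6 months replicate 5 had 9 counts of the female-specific Xist, against 6286 to 8436 in the other 19, and 1094 counts of the Y-linked Eif2s3y, against 0 to 6. This library had the highest Plin4, Cidea and Cidec of all 20, so that the members' group means and comparisons at 6 months are given with and without it, and the 6-month differences of the other genes named where it moved them by over 1.5 times or changed their sign. The CPM of every summed marker list was scaled to the library total alone, without TMM normalization. HIRA 6 months replicate 5 had the lowest TMM factor of the 20 libraries (0.918). Its sums are therefore lower on this scale than after TMM normalization. Its summed markers of Kupffer cells and macrophages (82.9 CPM) were below those of the other 4 livers of its group (248 to 659 CPM). The same held for its biliary (42.9 against 81.1 to 171 CPM), stellate (186 against 322 to 865 CPM) and endothelial markers (115 against 170 to 210 CPM). The Rosa26 livers of that time were at 151 to 1144 CPM for macrophages, 60.0 to 120 for biliary, 178 to 359 for stellate and 100 to 192 for endothelial markers, so that replicate 5 lay below them in the first 2 lists and among them in the others. Of the 8 adipocyte markers, Lep was at 0 everywhere, Adipoq reached 9 counts and Ucp1 1 count at most, and most of the sum came from Adrb3, at 107 to 275 counts in every library. The summed level was 7.30 to 11.7 CPM (Rosa26 3 weeks), 8.64 to 14.5 (HIRA 3 weeks), 5.71 to 8.21 (Rosa26 6 months) and 5.52 to 11.1 in 4 of the HIRA 6 months livers. HIRA 6 months replicate 5 was at 17.8, the highest of the 20. Hepatocyte markers such as Alb were abundant in every library. The targeted gene had 87 to 127 counts in HIRA and 128 to 171 in Rosa26 livers at 3 weeks (log2 fold change −0.48 ± 0.14, adjusted p = 0.197) and 109 to 136 against 105 to 157 at 6 months (−0.10 ± 0.14, adjusted p = 0.794). A count of its RNA does not show whether the gene was edited. In bulk tissue, fewer cells of a type and less RNA per cell cannot be told apart.

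To see which coat proteins dominated in these livers, levels were compared per kilobase of exon. On this scale Plin2 was the highest member in every library, at a mean of 130 CPM per kb over the 20 livers (69.8 to 190). Cideb followed at 42.3 (31.5 to 51.7) and then Plin5 at 18.7 (10.2 to 31.2) and Plin3 at 15.0 (10.5 to 20.9), whose ranges overlapped. The 4 remaining genes were far lower: Cidec at 2.82 (0.939 to 32.7), Plin4 at 1.70 (0.677 to 7.69), Cidea at 0.536 (0 to 10.2) and Plin1 at 0.00722 (0 to 0.0521). The ranges of Cidec and Plin4 overlapped. Without HIRA 6 months replicate 5, which held the top value of each, Cidec was at 1.25 (0.939 to 1.74), Plin4 at 1.38 (0.677 to 3.44) and Cidea at 0.0296 (0 to 0.112), so that the order of Cidec and Plin4 turned. The deposited FPKM put Cideb much closer to Plin2, at a mean of 163 beside 229, while the counts per kb set the same genes at 42.3 and 130. On FPKM the order of the pair turned in 2 libraries, HIRA 3 weeks replicate 2 (Cideb at 153 and Plin2 at 127) and replicate 4 (157 and 131).

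**Figure D1:**
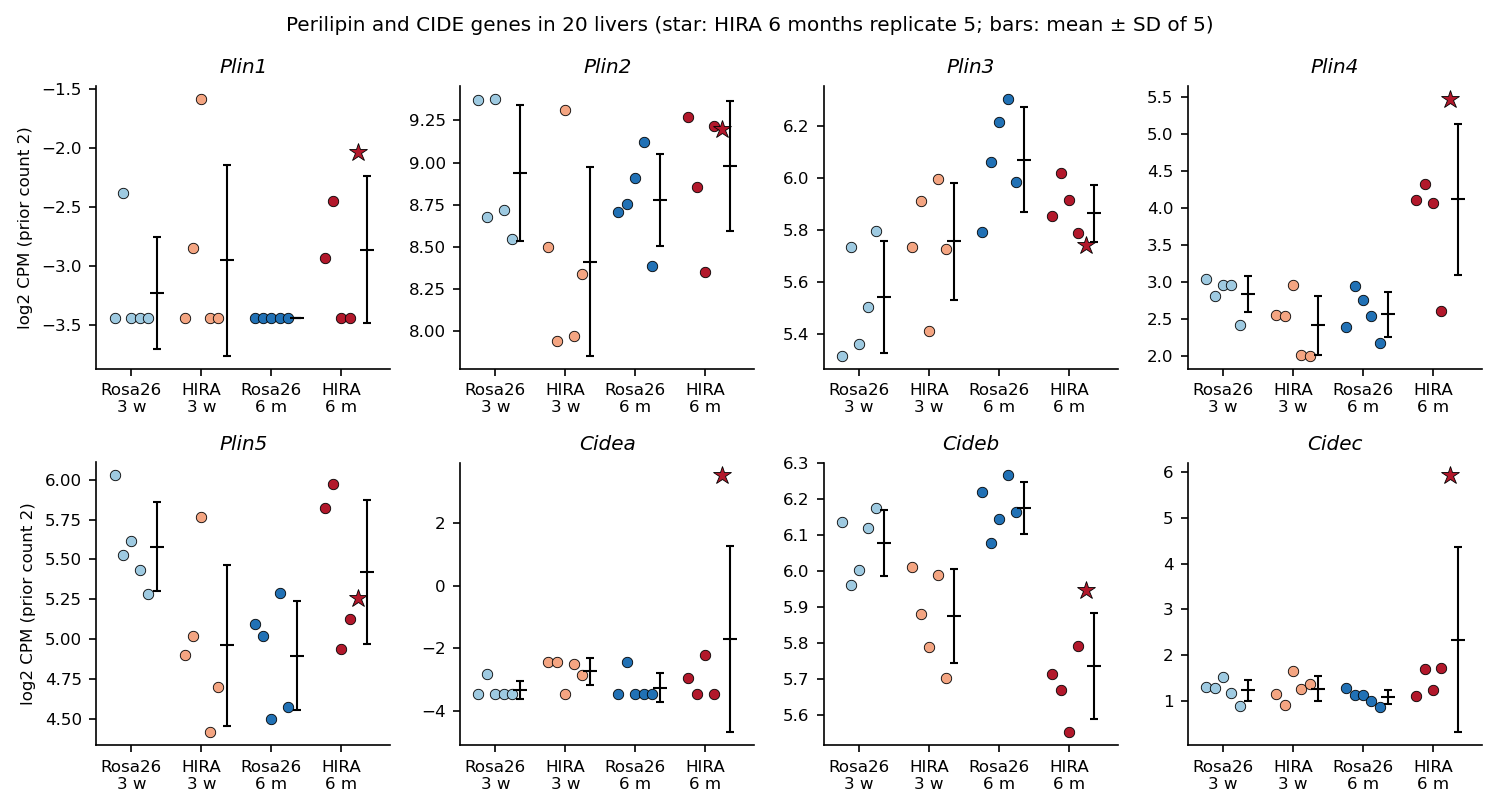
Log2 CPM (prior count 2) of the 8 genes in each of the 20 livers, with a point per library, the bar beside each group giving the mean ± SD (n = 5) and a star for HIRA 6 months replicate 5. Plin4 is higher in 4 of 5 HIRA livers at 6 months than in any Rosa26 liver of that time, Cideb is lower in all 5, and the high Cidea and Cidec belong to the starred library; vertical scales differ between panels.

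Within the perilipins, Plin2 held 79.0% ± 3.72 of the summed level per kb in Rosa26 livers at 3 weeks, 75.6% ± 5.49 in HIRA livers at 3 weeks, 78.9% ± 1.70 in Rosa26 livers at 6 months and 78.0% ± 4.97 in HIRA livers at 6 months (SD, n = 5 each). Plin4, the largest member by exon length, held 0.696% ± 0.118, 0.716% ± 0.159, 0.645% ± 0.127 and 1.95% ± 1.19 in the same order. Its highest share in any library was 3.71%, in HIRA 6 months replicate 5, and without that library its share in the group was 1.51% ± 0.769 (n = 4) and that of Plin2 77.3% ± 5.48. Plin5 and Plin3 changed places between groups: Plin5 was at 23.2 ± 4.82 CPM per kb beside 12.4 ± 1.87 for Plin3 in Rosa26 livers at 3 weeks, and at 14.5 ± 3.37 beside 17.9 ± 2.45 in those at 6 months. In HIRA livers Plin5 was at 15.7 ± 6.11 beside 14.4 ± 2.15 for Plin3 at 3 weeks, and at 21.3 ± 6.79 beside 15.4 ± 1.17 at 6 months (22.1 ± 7.59 beside 15.7 ± 1.06 without replicate 5). At 3 weeks HIRA replicate 3 had 26.0 of Plin5 beside 11.2 of Plin3 and replicate 1 had 14.3 beside 14.1, while Plin3 was the higher in replicates 2, 4 and 5. The summed perilipin level was 181 ± 43.8, 135 ± 49.6, 160 ± 27.5 and 188 ± 37.1 CPM per kb in the 4 groups, the last at 183 ± 41.0 without replicate 5.

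**Figure D2:**
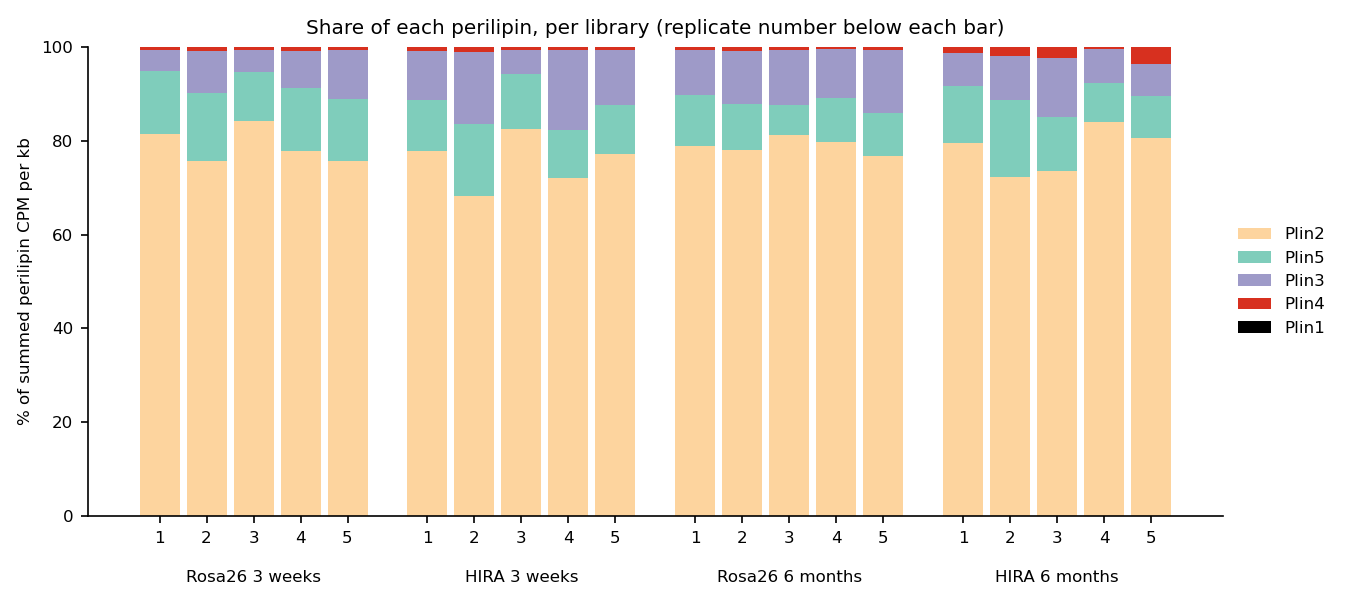
Share of each perilipin in the summed perilipin level (CPM per kb of exon) in each liver, as stacked bars that add up to 100%. Plin2 takes 68.3 to 84.2% in every library, and Plin4 is thickest in 4 of the 5 HIRA 6 months bars.

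At 6 months after injection, Plin4 was the 1 member of 8 that passed both thresholds used here, an adjusted p under 0.05 in edgeR's quasi-likelihood test and an absolute log2 fold change over 1, beside 0.332% of all genes tested (76 of 22867). It was at 17.2, 19.9, 16.7, 5.97 and 44.4 CPM in HIRA replicates 1 to 5 and at 5.17, 7.60, 6.67, 5.70 and 4.40 CPM in the Rosa26 livers. In all, 4 of the HIRA livers were above every control, and replicate 4 lay among the controls. The group means were 20.8 ± 14.2 and 5.91 ± 1.25 CPM (SD, n = 5), and the log2 fold change was 1.82 ± 0.33 (SE, adjusted p = 0.0141). Without HIRA replicate 5 the HIRA mean was 14.9 ± 6.13 CPM (n = 4) and the log2 fold change 1.34 with an adjusted p of 0.0135. Scaled without TMM normalization, summed stellate markers were at 322 to 865 CPM in those 4 livers and 178 to 359 in the Rosa26 livers. Biliary markers on that scale were at 81.1 to 171 and 60.0 to 120. None of the 7 stellate and 5 biliary genes passed both thresholds, and their part in the Plin4 values was not tested. The call did not hold when only the 10 livers of that time were fitted (1.80, adjusted p = 0.128). On log2(FPKM + 1) the difference was 0.97 (adjusted p = 0.0478), under the fold threshold. Plin4 was at 0.815 to 5.64 FPKM in HIRA and 0.626 to 1.08 in Rosa26 livers. At such low values the added 1 shrinks a log2 difference, so that it is not comparable with the fold from counts.

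At 3 weeks Plin4 was at 8.11, 6.89, 7.67, 7.66 and 5.26 CPM in Rosa26 livers and at 5.76, 5.72, 7.65, 3.94 and 3.91 in HIRA livers. The groups overlapped, with the HIRA mean the lower (log2 fold change −0.40 ± 0.34, adjusted p = 0.824). Between 3 weeks and 6 months Plin4 passed both thresholds in HIRA livers (1.95 ± 0.34, adjusted p = 0.0264), again as 1 of 8 members beside 0.0569% of all genes, and at 1.47 (adjusted p = 0.0222) without HIRA 6 months replicate 5. It did not pass in Rosa26 livers (−0.27 ± 0.33, adjusted p = 0.806), where 0 of 8 members did beside 0.162%. The call in HIRA livers was lost when HIRA 3 weeks replicate 1, 2, 4 or 5 was left out (adjusted p = 0.057, 0.0927, 0.125 and 0.102), with log2 fold changes of 1.85 to 1.97. It was also lost with limma-voom (1.72, adjusted p = 0.121), with only the groups compared (1.93, adjusted p = 0.22) and on log2(FPKM + 1) (0.99, adjusted p = 0.152). The difference of the guide effects between the times, 2.22 ± 0.47, did not pass (adjusted p = 0.614), as in 0 of the 22867 genes (0%), while 1514 genes (6.62%) and 5 of the 8 members had an unadjusted p under 0.05 in edgeR (7.64% and 4 of 8 without HIRA 6 months replicate 5). It passed when HIRA 6 months replicate 4, the HIRA liver with low Plin4, was left out (2.45, adjusted p = 0.0331), and did not when any of the other 19 was (1.74 to 2.37, adjusted p = 0.342 to 0.909), with the lowest value, 1.74 (adjusted p = 0.46), without replicate 5. These comparisons share livers, so that their values are given side by side and not as support for each other.

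**Figure D3:**
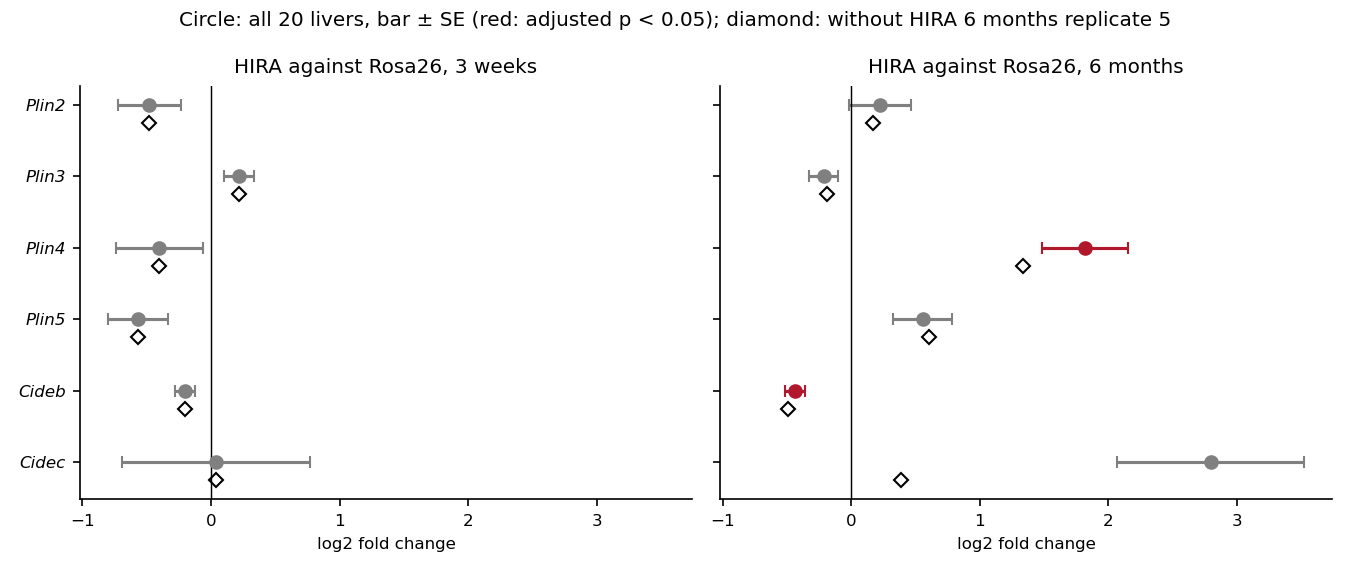
Log2 fold change of HIRA against Rosa26 livers at 3 weeks (left) and 6 months (right) for the 6 members with at least 1 CPM on average, with circles and bars for the estimate ± SE over all 20 livers, red where the adjusted p is under 0.05, and diamonds for the fit without HIRA 6 months replicate 5. Plin4 and Cideb pass at 6 months with or without that library, and Cidec moves from 2.80 to 0.39 when it is left out.

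Plin5, the neighbour of Plin4, did not pass in any comparison, and its direction differed between the times. At 3 weeks it was at 65.2, 46.1, 49.0, 43.2 and 38.9 CPM in Rosa26 livers and at 29.8, 32.3, 54.2, 21.2 and 25.9 in HIRA livers. In all, 4 of the HIRA livers lay below every control and replicate 3 lay among them (log2 fold change −0.57 ± 0.23, adjusted p = 0.466). Leaving out 1 liver of that time moved it from −0.83 (adjusted p = 0.131, without HIRA replicate 3) to −0.44 (adjusted p = 0.687, without Rosa26 replicate 1). At 6 months Rosa26 livers had 34.0, 32.4, 22.5, 39.0 and 23.7 CPM and HIRA livers 56.4, 62.7, 30.5, 34.8 and 38.2, of which replicates 1 and 2 were above every control (0.55 ± 0.23, adjusted p = 0.248, and 0.61 without replicate 5, adjusted p = 0.201). The difference of the guide effects was 1.12 ± 0.33 (adjusted p = 0.614), and 1.17 without that replicate (adjusted p = 0.477). In Rosa26 livers alone, 4 of the 5 at 6 months were below every liver at 3 weeks (−0.68 ± 0.23, adjusted p = 0.201).

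Plin2, the main hepatocyte droplet coat, resembled Plin5 at 3 weeks. Rosa26 livers had 663, 409, 666, 421 and 373 CPM and HIRA livers 362, 245, 637, 250 and 323. Again 4 HIRA livers were below every control and replicate 3 was with the highest controls (log2 fold change −0.48 ± 0.24, adjusted p = 0.595). Leaving out 1 liver of that time moved it from −0.78 (adjusted p = 0.164, without HIRA replicate 3) to −0.36 (adjusted p = 0.785, without Rosa26 replicate 3). At 6 months the Rosa26 livers had 417, 431, 481, 558 and 334 CPM and the HIRA livers 618, 462, 327, 596 and 587, which overlapped (0.22 ± 0.24, adjusted p = 0.725, and 0.17 without replicate 5, adjusted p = 0.791). Over 28 alternative fits this 6-month difference was at 0.14 to 0.35 and did not pass in any. Over the 20 livers Plin2 and Plin5 had a Pearson r of 0.67 in log2 CPM, and of 0.65 with each group centred on its mean. This is a description over livers that share groups.

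Plin3, the widely expressed perilipin that moves between cytosol and droplets, did not pass in either guide comparison. At 3 weeks it was at 47.0 ± 7.08 CPM in Rosa26 and 54.5 ± 8.15 in HIRA livers (0.21 ± 0.12, adjusted p = 0.644), and at 6 months at 67.7 ± 9.28 and 58.3 ± 4.43 (−0.22 ± 0.12, adjusted p = 0.387, and 59.5 ± 4.03 CPM and −0.19 without HIRA replicate 5, adjusted p = 0.461). In Rosa26 livers it was at 39.8 to 55.5 CPM at 3 weeks and at 55.3 to 79.0 at 6 months, with 4 of the 5 later livers above every earlier one. That difference, 0.53 ± 0.12, missed the threshold narrowly (adjusted p = 0.0521) and passed it in 11 of 28 alternative fits, DESeq2 (0.54, adjusted p = 0.00288) and the fit with a replicate block (0.53, adjusted p = 0.038) among them.

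Plin1, the perilipin of fat cells, was near absence in the counts. It had 0 counts in 14 of the 20 livers and 14 counts in all, with 5 in HIRA 3 weeks replicate 3 and 3 in HIRA 6 months replicate 5 as the highest values. The former was also the library with the most Adipoq (9 counts) and Retn (5 counts), markers of fat cells, and the part of adipose tissue in its Plin1 was not tested. No fold change is given at such counts.

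Cideb, the CIDE protein of normal hepatocytes, passed the adjusted p threshold at 6 months but not the fold threshold. With the adjusted p alone, 2 of the 8 members passed (Plin4 and Cideb), beside 1.31% of all genes. HIRA livers were at 52.4, 50.8, 46.8, 55.3 and 61.7 CPM and Rosa26 livers at 74.4, 67.5, 70.6, 76.9 and 71.7. All 5 HIRA livers were below all 5 controls, which made Cideb the 1 member of 8 whose groups did not overlap at 6 months, beside 3.15% of all genes. The log2 fold change was −0.44 ± 0.08 (adjusted p = 0.0141), and −0.49 without HIRA replicate 5 (adjusted p = 0.00506). At 3 weeks HIRA livers had 58.8 ± 5.31 and Rosa26 livers 67.6 ± 4.27 CPM, with 3 HIRA livers below every control (−0.20 ± 0.08, adjusted p = 0.427). At that time 0 of 8 members had groups without overlap, beside 2.69% of all genes, and 0 of 8 passed both thresholds, beside 0.114% (0 also in DESeq2). At an unadjusted p under 0.05 in edgeR there were 2 of 8 members at 3 weeks, beside 8.87% of all genes, and 6 of 8 at 6 months, beside 15.5%. The 6 included Plin1 and Cidea, which had few or no counts in most libraries, and without HIRA 6 months replicate 5 there were 4 (Plin4, Plin5, Cideb and Cidec), beside 17.7%.

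On the scale of the deposited FPKM the difference in Cideb did not pass. HIRA livers at 6 months had 151, 143, 144, 153 and 199 and Rosa26 livers 175, 153, 190, 178 and 156, so that the groups overlapped (difference on log2(FPKM + 1) −0.11, adjusted p = 0.563). The overlap came from HIRA replicate 5 alone, since the other 4 HIRA livers, at 142.7 to 152.5 FPKM, all lay below the Rosa26 livers, the lowest of which was at 153.1. On counts, the log2 fold change was the same when only the livers of that time were fitted (−0.44), with an adjusted p of 0.101 in a fit that called 0 genes in all. Nop9, which shares exon bases with Cideb, had 386 to 553 counts in HIRA and 391 to 489 in Rosa26 livers at 6 months (0.13 ± 0.08, adjusted p = 0.465). Its counts over all livers were 32.5% of those of Cideb. The part of shared reads in the 2 deposited values was not tested.

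Cidec, which fuses droplets in fat cells and in fatty liver, was low and even in 19 livers, at 1.74 to 3.23 CPM. In HIRA 6 months replicate 5 it was at 60.6 CPM (1193 counts against 38 to 69), 18.8 times the next highest library. Cidea (chr18:67343604-67367785, plus strand) followed the same pattern from a base near 0: it had 223 counts in that library and 0 to 3 in the other 19. At 6 months the fit over all livers gave Cidec a log2 fold change of 2.80 ± 0.73 with an adjusted p of 0.0597 and Cidea an adjusted p of 0.0545, so that neither passed. Without that library Cidec was at 2.07 to 3.23 CPM in HIRA and 1.74 to 2.35 CPM in Rosa26 livers (0.39, adjusted p = 0.28), and Cidea had 4 counts in all in 4 HIRA livers and 2 in 5 Rosa26 livers. Leaving out any other HIRA 6 months library instead brought both under the threshold (adjusted p = 0.035 to 0.0453 for Cidec and 0.0301 to 0.0472 for Cidea). At 3 weeks Cidec had 2.29 ± 0.365 CPM in Rosa26 and 2.35 ± 0.47 CPM in HIRA livers (0.04 ± 0.73, adjusted p = 0.997).

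**Figure D4:**
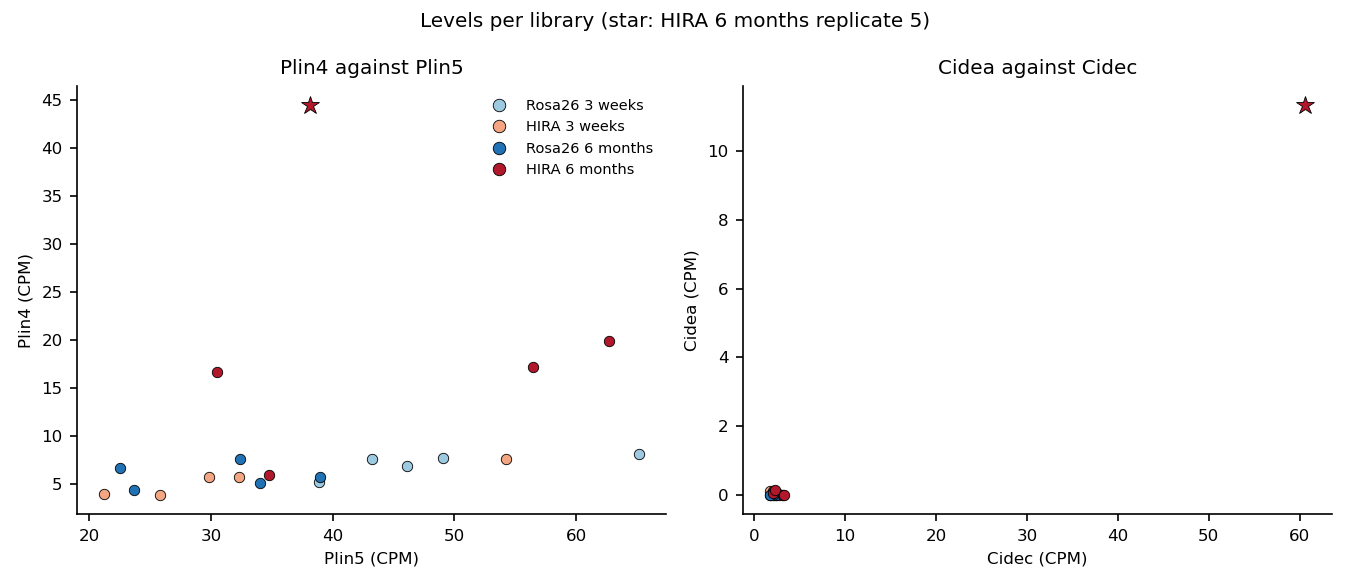
Levels of 2 pairs of members in each of the 20 livers in CPM, Plin4 against Plin5 (left) and Cidea against Cidec (right), coloured by group, with a star for HIRA 6 months replicate 5. On the left, 4 HIRA 6 months livers stand above all others in Plin4 across a wide range of Plin5, and on the right 1 library has 11.3 CPM of Cidea and 60.6 CPM of Cidec while the other 19 have at most 0.124 and 3.23 CPM.

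Other genes that moved with Cidea and Cidec in that library were Fitm1, which encodes a protein that partitions fat into droplets (101 CPM against 3.74 to 28.0 in the other 19), and the adipsin gene Cfd (111 counts against 0 to 21). Its Adipoq, at 2 counts, and its Retn and Plin1, at 3 counts each, were near 0. At these low counts its Adipoq and Plin1 each had rank 2 among the 20 livers in CPM, and only HIRA 3 weeks replicate 3 had more Retn. Its Plin2 (587 CPM) and Plin5 (38.2 CPM) lay within the range of the other livers. The part of the animal's sex and of adipose tissue in these values was not tested.

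The other genes of droplet biology were read from 7 lists of 84 genes in all. Of 10 lipolysis genes, 1 passed the adjusted p threshold at 6 months, beside 1.31% of all genes. This was Pnpla2, the main triglyceride lipase (0.63 ± 0.11, adjusted p = 0.0141). It was at 77.1, 97.0, 75.0, 104 and 102 CPM in HIRA and 58.3, 59.9, 52.7, 67.2 and 56.9 in Rosa26 livers, without overlap, as in 3.15% of all genes. Its difference was 0.58 (adjusted p = 0.0137) without HIRA replicate 5. In the same list Pnpla3, a lipase relative that feeding raises, was at −0.95 ± 0.44 (adjusted p = 0.297) and the lipase inhibitor G0s2 at 0.75 ± 0.48 (adjusted p = 0.488, and 0.49 without HIRA replicate 5). At 3 weeks the largest differences of this list were 0.63 ± 0.43 for Pnpla3 (adjusted p = 0.757) and −0.48 ± 0.24 for the lipase inhibitor gene Hilpda (adjusted p = 0.59). Of 14 genes of droplet formation and other droplet proteins, 1 passed the adjusted p threshold at 6 months, beside the same 1.31%. This was Fitm2, an endoplasmic reticulum protein of droplet budding (0.57 ± 0.10, adjusted p = 0.0141). Fitm2 was at 56.7, 46.3, 53.5, 51.4 and 56.8 CPM in HIRA and 42.0, 34.9, 37.5, 31.9 and 31.7 in Rosa26 livers, again without overlap, and its difference was 0.55 (adjusted p = 0.0155) without HIRA replicate 5. Without that library a further gene of the list passed, Tmem159, a partner of seipin in droplet formation (0.67, adjusted p = 0.0363), which was at 0.51 ± 0.20 (adjusted p = 0.206) with it. The largest at 3 weeks were Tmem159 (0.46 ± 0.20, adjusted p = 0.48) and Fitm1 (0.27 ± 0.46, adjusted p = 0.943). With only the livers of 6 months fitted, neither Pnpla2 (0.62, adjusted p = 0.0949) nor Fitm2 (0.57, adjusted p = 0.0916) passed. Fitm1 passed both thresholds over time in HIRA livers (2.57, adjusted p = 0.0303), 1 of the 14 beside 0.0569% of all genes, and also without the library named above (1.66, adjusted p = 0.0203). It did not pass with limma-voom (2.15, adjusted p = 0.113), with only the groups compared (2.55, adjusted p = 0.175), on log2(FPKM + 1) (2.03, adjusted p = 0.111) or without any 1 of the 5 HIRA 3 weeks livers (adjusted p up to 0.132). In Rosa26 livers Fitm1 went from 4.94 ± 1.27 to 16.2 ± 8.36 CPM over the same time (1.72 ± 0.46, adjusted p = 0.0989), which passed without that library (1.72, adjusted p = 0.00747), with DESeq2 (1.73, adjusted p = 0.0206) and with only the groups compared (1.72, adjusted p = 0.0363). The difference between the guides in this change was 0.85 ± 0.63 (adjusted p = 0.858), and −0.05 without that library. At 6 months Fitm1 was at 1.12 ± 0.43 against Rosa26 (adjusted p = 0.203) and at 0.22 without that library. The list medians at 6 months were 0.02 for lipolysis and 0.06 for droplet proteins, beside 0.03 over all genes, and −0.01 and −0.03 without HIRA replicate 5.

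Of 15 genes of triglyceride and sterol ester synthesis, none passed the adjusted p threshold in any of the 5 comparisons in the edgeR fit of all 20 livers. At 6 months 1 of them had an unadjusted p under 0.05, and DESeq2 passed 0 there and 1 each at 3 weeks and in both comparisons over time. In edgeR 1 passed in each comparison over time with the replicate block, and 1 at 3 weeks with only the groups compared. Among those of at least 1 CPM, the largest differences at 6 months were in Lpin1, a phosphatidate phosphatase gene (0.74 ± 0.45, adjusted p = 0.464), and Gpam, the first acyltransferase of the pathway (−0.35 ± 0.19, adjusted p = 0.393), and at 3 weeks in the acyltransferase genes Agpat2 (−0.48 ± 0.11, adjusted p = 0.0828) and Gpat4 (0.33 ± 0.11, adjusted p = 0.268). None of the 5 genes of VLDL assembly passed either in edgeR or DESeq2, with 1 at an unadjusted p under 0.05 at 6 months in edgeR. In this list Mttp, the lipid transfer protein that loads VLDL, was at 0.22 ± 0.11 (adjusted p = 0.309) at 6 months and 0.12 ± 0.11 (adjusted p = 0.849) at 3 weeks. The next largest were Sar1b at 6 months (−0.04 ± 0.12, adjusted p = 0.918, and −0.11 without HIRA replicate 5) and, above Mttp, Tm6sf2 at 3 weeks (0.17 ± 0.13, adjusted p = 0.798). Of 15 targets of PPAR alpha, none passed at either time in edgeR or DESeq2 (0 at 3 weeks and 4 at 6 months had an unadjusted p under 0.05 in edgeR). All 15 had a log2 fold change above 0 at 6 months, with a median of 0.28 beside 0.03 over all genes, and 14 of them without HIRA replicate 5, where Vnn1 was at −0.14. At 3 weeks 8 of the 15 were above 0 and the median was 0.00. From 3 weeks to 6 months 3 of the 15 were above 0 in Rosa26 livers (median −0.19) and 12 in HIRA livers (median 0.24). The 15 genes were read in the same livers, so that their signs are not separate results. Among those of at least 1 CPM, the largest at 6 months were the hepatic hormone gene Fgf21 (2.02 ± 0.67, adjusted p = 0.142) and the thioesterase gene Acot1 (1.30 ± 0.54, adjusted p = 0.245). Fgf21 was at 10.8, 1.73, 4.27, 3.42 and 6.91 CPM in HIRA and 1.28, 2.56, 1.25, 0.973 and 0.642 in Rosa26 livers, so that replicate 2 alone lay among the controls. At 3 weeks the largest were Fgf21 (−1.27 ± 0.64, adjusted p = 0.592) and Pdk4, a kinase gene that fasting raises (−0.74 ± 0.47, adjusted p = 0.731).

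**Figure D5:**
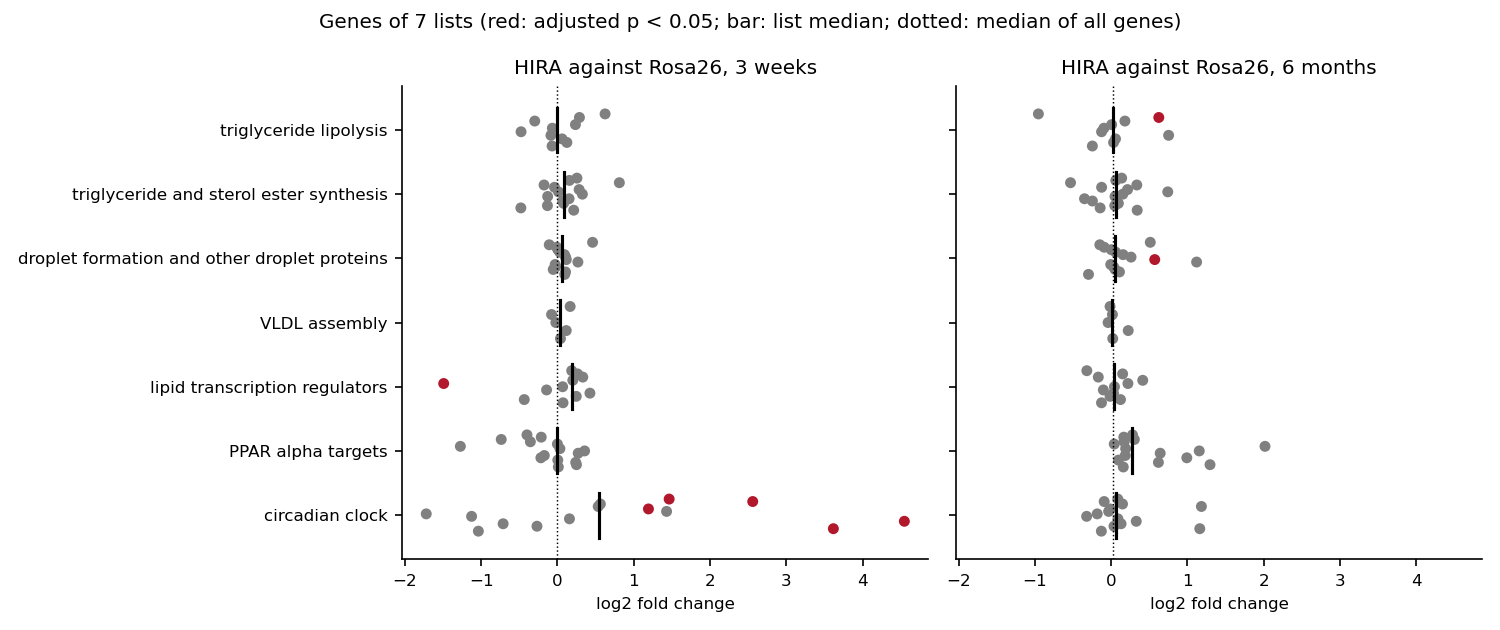
Log2 fold change of HIRA against Rosa26 livers at 3 weeks (left) and 6 months (right) for each tested gene of 7 lists, red where the adjusted p is under 0.05, with a bar at each list's median and a dotted line at the median of all genes. Clock genes are spread widely at 3 weeks, and at 6 months the 15 PPAR alpha targets all lie above 0 (14 without HIRA 6 months replicate 5) while Pnpla2 and Fitm2 are the lipid genes that pass in this fit of all 20 livers (Tmem159 also without that library).

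The groups compared at 3 weeks also differed in clock genes. Of 14 clock genes, 5 rose past both thresholds in HIRA livers at 3 weeks (Dbp, Ciart, Per3, Nr1d2 and Tef), beside 0.114% of all genes, and 4 rose from 3 weeks to 6 months in Rosa26 livers (the same without Ciart), beside 0.162%. These counts depended on single livers, since leaving out 1 of the 20 gave 0 to 6 and 0 to 5. They also depended on the fit: DESeq2 called 7 and 7, limma-voom 1 and 0, log2(FPKM + 1) 0 and 0, and edgeR on only the groups compared 8 and 6. At 3 weeks 0 passed without HIRA replicate 4 or 5 or Rosa26 replicate 1, 2 or 4, and 6 without HIRA 6 months replicate 5, Nr1d1 added (1.43, adjusted p = 0.0448). Over time 0 passed without Rosa26 3 weeks replicate 1, 3 or 4 or Rosa26 6 months replicate 3 or 4. Dbp, the output factor of the clock, was at 1.52 to 3.54 CPM in the Rosa26 livers of 3 weeks and at 9.05 to 104 in the HIRA livers (4.55, adjusted p = 0.0252). In HIRA replicates 1 to 5 of 3 weeks it was at 47.6, 38.7, 9.05, 104 and 55.2 CPM. At 6 months Dbp was at 18.1 to 95.1 CPM in Rosa26 and 3.76 to 115 in HIRA livers (0.33, adjusted p = 0.866, and −0.08 without HIRA replicate 5). The largest clock differences at 6 months were in Per1 (1.18 ± 0.38, adjusted p = 0.131) and Ciart (1.16 ± 0.60, adjusted p = 0.361), and Ciart was at 3.62 ± 0.71 (adjusted p = 0.0379) at 3 weeks. In HIRA replicates 1 to 5 of 6 months Dbp was at 3.76, 40.4, 20.5, 110 and 115 CPM. Of 11 lipid transcription regulators, 1 passed both thresholds at 3 weeks, beside 0.114% of all genes. None passed at 6 months (1 at an unadjusted p under 0.05 in edgeR, and 0 past the adjusted threshold in DESeq2). Ppard, a lipid-sensing nuclear receptor gene, fell at 3 weeks (−1.49, adjusted p = 0.0269) and from 3 weeks to 6 months in Rosa26 livers (−1.34, adjusted p = 0.0309). It did not pass without HIRA 3 weeks replicate 1, 2, 4 or 5 or Rosa26 3 weeks replicate 1, 2 or 4 in the former (adjusted p up to 0.0858), or without Rosa26 3 weeks replicate 1, 2 or 4 or Rosa26 6 months replicate 1, 3 or 4 in the latter (adjusted p up to 0.0968). The next largest of this list at 3 weeks was Creb3l3 (−0.43 ± 0.18, adjusted p = 0.465), and the largest at 6 months were Pparg (0.41 ± 0.18, adjusted p = 0.251) and Srebf1 (−0.32 ± 0.21, adjusted p = 0.502). Without HIRA 6 months replicate 5 Pparg was at 0.25 (adjusted p = 0.452), Srebf1 at −0.40 and Ppard at 0.30, so that Srebf1 and Ppard were the largest. The part of these clock gene differences in the 3-week values of Plin2, Plin4 and Plin5, and in their change over time, was not tested.

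The genes most like each member were taken as the 3 with the highest Pearson r of log2 CPM over the 20 livers, among 11963 genes. The r values are descriptions, since livers of a group share their treatment. For Plin2 they were Creb3l3, which encodes a fasting-responsive liver transcription factor (0.90), and the carnitine system genes Cpt2 (0.89) and Slc25a20 (0.87), and these held at 0.92, 0.90 and 0.85 with groups centred. For Plin5 they were Pxmp4 (0.82), Fpgs (0.81) and Lrfn3 (0.80), and for Plin3 they were Rab23 (0.84), Acvr1b (0.83) and Dennd2d (0.82). For Cideb they were the mitochondrial ferredoxin gene Fdx1 (0.90), Tefm (0.86) and the hepatocyte receptor gene Asgr1 (0.86), with r of 0.75, 0.68 and 0.53 with groups centred. For Plin4 they were Med15 (0.81), Gtf2ird1 (0.79) and Map1lc3a (0.78), which were at 0.61, 0.68 and 0.56 without HIRA 6 months replicate 5. For Cidec they were the Y-linked Ddx3y (0.96), the male-typical cytochrome gene Cyp4a12a (0.95) and Gtpbp4-ps1 (0.94), which were at 0.03, 0.16 and 0.47 without that library.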

How the data were processed

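RNA was taken from whole liver, poly(A)-selected and made into libraries with a directional kit. Reads were aligned to mm10 by the authors (STAR), who deposited whole-number counts for each gene, not normalized. The labels name HTSeq and Cufflinks beside STAR and the study's methods name HOMER for counting, so the counter and its strand setting are not settled here. The authors also deposited FPKM values (fragments per kilobase, scaled to library size), with 629498 blank cells, 28812 of them where the count was above 0.

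Groups and replicate numbers came from the sample titles. On the sex of these mice the sources differ: male in the study's main text, female in its legend and in the labels. Genes with at least 10 counts in total (22867 of 55421) were fitted in one model of all 20 libraries with a mean per group, by edgeR 4.0.16 (quasi-likelihood test, TMM), with Benjamini-Hochberg adjustment over all genes. Every adjusted p is from this fit unless another is named, and the ± beside a log2 fold change is its SE. A gene was called at an adjusted p under 0.05 and an absolute log2 fold change over 1. Log2 CPM used a prior count of 2. Levels between genes were divided by the exon length in GENCODE M21, to which 99.7% of identifiers matched without their version. Nothing says whether same-group livers were processed apart, so p-values measure the spread between these samples. Fits ran in R 4.3.3, with DESeq2 1.42.0 and limma 3.58.1 for alternatives. Tables and plots were made in Python 3.11.15 (pandas 2.3.3, matplotlib 3.10.9, numpy 2.4.6). On simulated counts for HIRA against Rosa26 at 6 months (22405 genes, 200 changed by an absolute log2 fold change of 2) edgeR recovered 98%.

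The members and the gene lists were chosen with earlier results of these data known. Named beside the members were Hira, list genes past both thresholds, the 2 list genes with the largest change in each guide comparison among those with a mean of at least 1 CPM, marker genes, and the 3 genes most like each member. Pnpla2, Vnn1, Nr1d1, Retn, Adrb3, Cfd and Nop9 were named after their values were seen. Alternatives were 8 other fits (tool, normalization, filter, libraries, FPKM as log2(FPKM + 1), replicate block) and 20 that leave out a library. Promoter sequences are from RefSeq (GRCm38.p6) and were found for 7 of the 8 members. Low counts limit the comparison of some genes: Plin1 and Cidea are at or near 0 in most libraries.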

Additional observations from a re-analysis of the deposited data

Results flagged for a closer look

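In 24 sets of 5 livers (the 6 members of at least 1 CPM in the 4 groups) a library was looked for whose gap to the nearest other, divided by the range of the group, exceeds 0.71. Chance alone meets this in about 1 of 20 groups. It was met in 1 set, by Cidec at 60.6 CPM in HIRA 6 months replicate 5, with a gap of 0.98 of the range. Cidea in the same group, at 11.3 CPM in the same library with a gap of 0.989, was looked at after its values were seen, since without that library its mean there is 0.0409 CPM, so that it is a description and no result of the search. In the fit of all 20 livers no member's guide effect passed the test of a difference between 3 weeks and 6 months (adjusted p of 0.614 or more in edgeR for the 8 members). At an unadjusted p under 0.05 there were 5 of the 8, beside 6.62% of all genes, and 4, beside 7.64%, without HIRA 6 months replicate 5. Plin4 passed without HIRA 6 months replicate 4, the HIRA liver with low Plin4 (2.45, adjusted p = 0.0331). It did not pass without any 1 of the other 19 (adjusted p = 0.342 to 0.909).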

How the results depend on the processing

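Numbers of genes called depended strongly on the fit. Beside the values reported (26 at 3 weeks, 76 at 6 months, 0 for their difference, 37 over time in Rosa26 and 13 over time in HIRA livers), DESeq2 called 64, 127, 0, 157 and 74, and log2(FPKM + 1) called 4, 14, 0, 1 and 2. Fits of only the groups compared called 61, 0, 67 and 8, with no value for the difference, which takes all groups. Limma-voom called 13 at 3 weeks and 6 over time in HIRA livers, and the filter at 1 count called 25 in the latter. Leaving out 1 library gave 3 to 43, 18 to 109, 0 to 1, 1 to 83 and 5 to 25, the extremes without HIRA 3 weeks replicate 4 and HIRA 6 months replicate 5, Rosa26 6 months replicate 4 and HIRA 6 months replicate 4, any other library and HIRA 6 months replicate 4, Rosa26 3 weeks replicate 1 and HIRA 6 months replicate 5, and HIRA 3 weeks replicate 2 and HIRA 6 months replicate 5. Members called at 6 months were 1 (Plin4), but 3 with the filter at 1 count (Cidea and Cidec added) and 2 with filterByExpr (Cidec added). There were 0 with only the groups compared, 0 with log2(FPKM + 1), where Plin4 passed the adjusted p alone, and 1 to 3 without 1 library. Over time in HIRA livers the 1 (Plin4) became 0 with limma-voom, with only the groups compared and with FPKM, and 0 to 1 without 1 library. For the difference of the guide effects 0 to 1 members were called without 1 library, and 0 at 3 weeks and over time in Rosa26 livers throughout. The replicate block called 61 genes over time in Rosa26 and 26 in HIRA livers; same-numbered livers shared no origin in the labels, and 4 of 10 pairs correlated above 0.1 (−0.13 to 0.31), so it is no pairing of the design. With the block Plin4 stayed called at 6 months (1.72, adjusted p = 0.024) and Cidec went to 1.75 (adjusted p = 0.234). Plin4, the member called, kept its sign throughout. DESeq2 gave no adjusted p at 6 months for Plin1, Cidea and Cidec. FPKM set Plin2 at 88.2, 86.0, 88.0 and 87.5% of the summed perilipins in the 4 groups. The causes were not tested. Low counts left Plin1 and Cidea without a usable fold change.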
